A study of Mus musculus with 4 samples.

Results

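MHC class II molecules are the surface proteins with which B cells, dendritic cells and macrophages show peptides to helper T cells. The 10 genes described here were chosen by symbol, with earlier results of these data known. They encode the class II chains (H2-Aa, H2-Ab1, H2-Eb1), the invariant chain (Cd74) and the transactivator CIITA (Ciita). They also encode the peptide editor DM (H2-DMa, H2-DMb1, H2-DMb2) and its inhibitor DO (H2-Oa, H2-Ob). All 10 were found among the 23420 rows of the count files, and all 10 passed the low-count filter.

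The RNA-seq libraries were made from large pre-B cells of a mouse line, a stage of B cell development at which cells divide in response to interleukin 7. Every library came from cells with the genotype Irf4/8-/-, which lack a pair of transcription factors of B cells and myeloid cells. The cells were grown on OP9 stromal cells and transduced with a retrovirus that carried a GFP reporter and a hairpin against Myb (shMyb, 2 libraries) or against luciferase, a control (shLuc, 2 libraries). They were kept for 72 hours in 10 ng/ml interleukin 7 and sorted for GFP. The labels do not say whether the line is a clone, and each duplicate was a set of 12 wells, transduced apart from the other. P-values therefore measure the spread between duplicate transductions.

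In the class II pathway, an alpha and a beta chain pair in the endoplasmic reticulum and are held and escorted by the invariant chain. In endosomes, proteases cut the invariant chain down to a short stub in the peptide groove. DM then exchanges that stub for peptides, and DO, which is made mainly in B cells, restrains DM. CIITA binds no DNA itself but acts on an assembly of RFX, CREB and NF-Y proteins at the X, X2 and Y boxes of these promoters. In the mouse, class II appears at the surface late in B cell development, and pre-B cells carry little of it.

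Promoter windows (250 bases before to 50 after the start, RefSeq, GRCm38.p6) were given for 7 of the 10 members, in 8 windows, since H2-DMa had 2. H2-Ab1, Cd74 and Ciita were not used in the promoter search. The following 5 stretches begin 150 bases before the start. They are shown because they hold letters that match searched forms of the boxes on which CIITA's partners assemble. They lie at chr17:34305717-34305846 (H2-Eb1, plus strand), chr17:34287844-34287973 (H2-Aa, minus strand), chr17:34145099-34145228 (H2-DMb2, plus strand), chr17:34092229-34092340 (H2-Oa, plus strand) and chr17:34238755-34238884 (H2-Ob, plus strand). Capitals mark TGATTGG, a form of the Y box, and upstream of it the letters that matched 1 or both of the searched forms of the X box.
H2-Eb1: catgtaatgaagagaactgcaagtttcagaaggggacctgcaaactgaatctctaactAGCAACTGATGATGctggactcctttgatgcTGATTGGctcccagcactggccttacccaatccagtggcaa
H2-Aa: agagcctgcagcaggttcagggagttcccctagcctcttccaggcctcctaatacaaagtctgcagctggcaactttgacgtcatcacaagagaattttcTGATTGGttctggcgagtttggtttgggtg
H2-DMb2: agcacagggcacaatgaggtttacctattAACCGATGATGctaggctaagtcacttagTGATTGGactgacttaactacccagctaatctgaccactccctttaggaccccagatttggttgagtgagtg
H2-Oa: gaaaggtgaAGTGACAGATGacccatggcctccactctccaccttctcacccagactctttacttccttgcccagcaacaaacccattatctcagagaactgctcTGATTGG
H2-Ob: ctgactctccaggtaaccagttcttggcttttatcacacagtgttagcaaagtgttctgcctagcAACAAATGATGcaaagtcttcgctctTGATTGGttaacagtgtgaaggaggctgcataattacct

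The letters TGATTGG stood on the gene's strand in 6 of the 7 members and on either strand in 7.82% of 32851 mouse promoters of the same length. Their last base lay between positions -86 and -39 from the start. One searched form of the X box, whose last letters reach into the X2 box, read AACTGATGATG in H2-Eb1 and H2-DMb1, AACCGATGATG in H2-DMb2 and AACAAATGATG in H2-Ob. Among the members it stood in those 4 alone, and on either strand in 45 promoters of the whole table (0.14%). It and TGATTGG both occurred on the gene's strand in 4 promoters of the table (0.0122%), and those were the 4 members. These 2 motifs were chosen after the members' promoters had been seen, so their presence in the members was fixed by the choice.

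Of the other motifs searched, ATTGG, the core of the Y box, was in 7 of 7 members and in 37.41% of all promoters on either strand. The other X box form was in 3 members, as AGTAACTGATG in H2-DMb1, AGCAACTGATG in H2-Eb1 and AGTGACAGATG in H2-Oa, against 0.97% of all promoters. In H2-Oa it lay at positions -141 to -131, with the Y box at -45 to -39, and in H2-Eb1 at -92 to -82, with the Y box at -61 to -55. The match in H2-Oa thus lay farther from its Y box, and whether it serves as an X box was not tested. A joint motif of ETS and IRF proteins was in none of the 7 members and in 2.72% of promoters. AACNG, the core that MYB proteins bind, was in 5 of 7 members and in 80.29% of promoters. In H2-Eb1, H2-DMb1 and H2-DMb2 one of its matches overlapped the X box. The searched X box letters can themselves hold AACNG, so such an overlap follows in part from the motifs. Neither window of H2-DMa held TGATTGG or a form of the X box, and 1 of them held ATTGG.

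Before the members, the target of the hairpin was checked. Myb was at 616 and 600 CPM (counts scaled to a common library total, with TMM factors) in shLuc and at 617 and 639 CPM in the libraries labelled shMyb. This is a log2 fold change of 0.05 (95% interval -0.03 to 0.12, SE 0.04, edgeR quasi-likelihood adjusted p = 0.283). Library totals alone gave 0.11 and the correction for expression level 0.15, both called higher. The targeted transcript was thus not measured as lower, and the directions given for the members compare libraries by their labels. Total counts ran from 36573743 to 44682954, and a count of 0 allows a level of up to 3 counts, or 0.0689 to 0.0799 CPM by library, for counting error only. Of 11 B-lineage markers 5 rose and 4 fell, beside 30.6% and 31.7% of all tested genes, and their summed level was 7444 to 7886 CPM. Cd24a was at 2520 to 2909 CPM and Vpreb1 at 736 to 921 CPM, and both fell (-0.14 and -0.29), while Cd79a, at 889 to 1057 CPM, rose (0.22).

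Of the 10 members, 9 rose in the libraries labelled shMyb, none fell, and H2-DMb1 was not called. A call was an adjusted p below 0.05 in edgeR's quasi-likelihood test over all 12610 tested genes. In this comparison 30.6% of tested genes were called higher, 31.7% were called lower and 62.2% were called in either direction. Over the members the log2 fold changes had a median of 0.68, against 0.0048 over all tested genes. In all 10 members both shMyb libraries lay above both shLuc libraries, as they did in 41.0% of tested genes, while in 41.2% both lay below. Ciita, H2-Aa, H2-Eb1 and Cd74 were called at 2-fold or more, a size that 8.10% of tested genes reached in that direction.

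**Figure D1:**
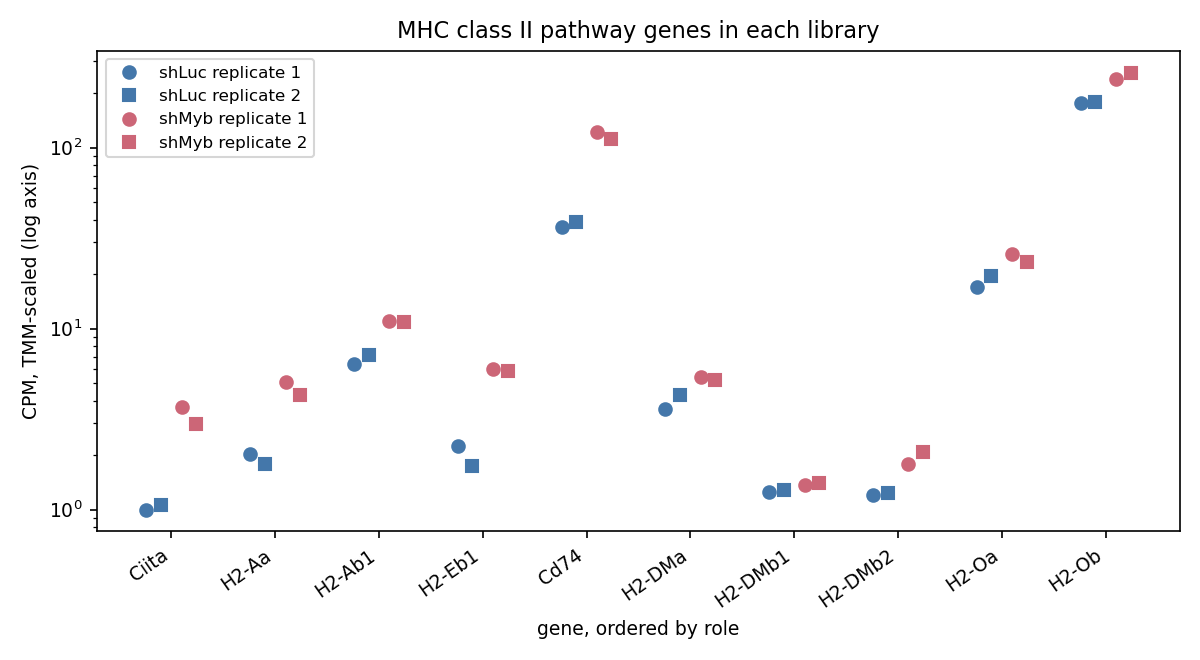
Level of each of the 10 genes in each library, as TMM-scaled CPM on a log axis, with circles for replicate 1 and squares for replicate 2. In each gene both shMyb points lie above both shLuc points, by little in H2-DMb1 (1.25 and 1.29 against 1.36 and 1.41 CPM) and by most in Ciita, Cd74 and H2-Eb1.

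Ciita, the transactivator on which expression of the class II chains depends (chromosome 16, 10480059 to 10528418, plus strand), was near the bottom of the measured range. It had 40 and 46 counts in shLuc and 144 and 111 in shMyb, or 1.00, 1.06, 3.70 and 2.96 CPM. Both shMyb libraries stood well above both shLuc libraries. The log2 fold change came to 1.69 (95% interval 1.26 to 2.12, SE 0.21, edgeR adjusted p = 1.7e-07). Its exons overlap those of Dexi, on the opposite strand, over 329 of 9535 exon bases. Whether the counting used strand is not given in the sources used here. Dexi was at 8.89 to 10.1 CPM over the 4 libraries, with a log2 fold change of 0.09 (adjusted p = 0.366).

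The class II chains among the members rose from low levels. H2-Aa, the alpha chain of the I-A molecule, was at 2.03 and 1.79 CPM in shLuc and at 5.06 and 4.29 CPM in shMyb. Its beta chain partner H2-Ab1 was at 6.41 and 7.14 against 10.99 and 10.89 CPM. H2-Eb1, the beta chain of the I-E molecule, was at 2.25 and 1.75 against 5.96 and 5.81 CPM. The groups did not overlap in any of these genes. The log2 fold changes were 1.29 for H2-Aa (SE 0.17, 95% interval 0.95 to 1.64, edgeR adjusted p = 2.99e-07) and 0.69 for H2-Ab1 (SE 0.09, 0.50 to 0.88, 5.48e-07). For H2-Eb1 it was 1.56 (SE 0.15, 1.25 to 1.88, 3.71e-09). The interval of H2-Ab1 lay below those of the other chains, although the difference between genes was not tested. H2-Ea-ps, the I-E alpha chain gene, annotated as a pseudogene, had 0 counts in 3 libraries and 1 in shMyb replicate 2.

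Cd74, the invariant chain (chromosome 18, 60803848 to 60812652, plus strand), had the smallest SE of the 4 members that rose 2-fold or more. It had 1465 and 1695 counts in shLuc and 4780 and 4178 in shMyb, which gave 36.7, 38.9, 123 and 111 CPM. The spread within a group was small beside the distance between groups. The log2 fold change came to 1.63 (95% interval 1.53 to 1.73, SE 0.05, edgeR adjusted p = 6.53e-16). Of tested genes 96.9% had a lower fold change. Divided by exon length, Cd74 stood at 5.40 ± 0.262 (SD, n = 2) times the summed level of H2-Aa, H2-Ab1 and H2-Eb1 in shLuc and at 8.18 ± 0.351 times in shMyb. With the longest coding transcript as length these were 3.16 ± 0.109 and 4.97 ± 0.165 times. For such a ratio, 2 libraries against 2 cannot give an exact permutation p below 0.333.

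The DM genes stood at a few CPM and changed least clearly. H2-DMa, the alpha chain, was at 3.58 and 4.29 CPM in shLuc and at 5.39 and 5.19 CPM in shMyb (log2 fold change 0.42, SE 0.13, 95% interval 0.15 to 0.70, edgeR adjusted p = 0.00759). Leaving out shLuc replicate 1 ended the call (0.28, adjusted p = 0.131), and it also ended with DESeq2, with the correction for expression level and in a test against a fold of 1.2. H2-DMb2 was at 1.201 and 1.24 against 1.797 and 2.08 CPM (0.66, SE 0.23, 0.19 to 1.13, adjusted p = 0.0143). That call ended without shMyb replicate 2 (0.55, adjusted p = 0.138) and with the same other settings. H2-DMb1, on 50 to 56 counts per library, was at 1.25 and 1.29 against 1.36 and 1.41 CPM (0.13, SE 0.24, -0.37 to 0.63, adjusted p = 0.666). The interval of H2-DMb1 thus includes 0 and extends up to 0.63.

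H2-DMb1 and H2-DMb2 are beta chain genes that lie side by side, and a part of their reads may be hard to tell apart. Their longest coding transcripts were 94.1% identical over 1219 aligned bases (GENCODE M21). Of the 50-base windows of H2-DMb1's coding transcripts 27.2% occurred unchanged in those of H2-DMb2. In the other direction, 21.2% of the windows of H2-DMb2 occurred in H2-DMb1. Reads from such windows may be split or lost, so both levels are uncertain. The difference between their fold changes was not tested, and their intervals overlap. In H2-DMa, 360 of 3448 exon bases overlap Brd2 on the opposite strand. Brd2 was at 400 to 412 CPM in all libraries (0.03, adjusted p = 0.537), and its part in the reads of H2-DMa was not tested.

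With Cd74, the DO genes were the most abundant members, and by CPM H2-Ob led in every library. H2-Oa, the alpha chain, was at 16.97 and 19.65 CPM in shLuc and at 25.7 and 23.3 CPM in shMyb (log2 fold change 0.42, SE 0.07, 95% interval 0.27 to 0.57, edgeR adjusted p = 4.48e-05). H2-Ob, the beta chain, had 7075 and 7814 counts in shLuc and 9328 and 9768 in shMyb. It was at 177 and 179 against 239 and 260 CPM (0.49, SE 0.04, 0.41 to 0.57, adjusted p = 1.57e-10). Both genes moved by a similar amount, and neither group of libraries overlapped the other. Exons of H2-Oa overlap BC051537 on the opposite strand over 321 bases, a gene with 8 to 18 counts per library.

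**Figure D2:**
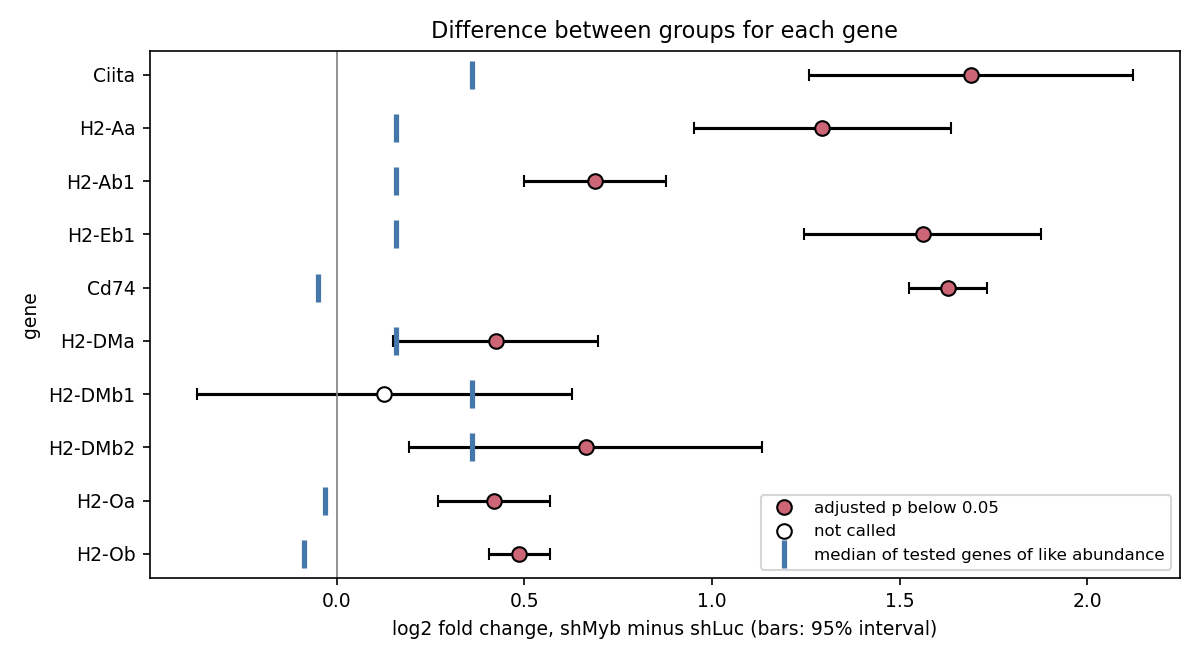
Log2 fold change of each gene, shMyb minus shLuc, with its 95% interval from edgeR (n = 2 libraries per group). Filled points passed an adjusted p below 0.05, and blue marks give the median of all tested genes in the same of 10 bins by mean expression. Ciita, H2-Aa, H2-Eb1 and Cd74 lie above 1, while the DM and DO genes lie between 0.13 and 0.66.

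Genes of low abundance had higher fold changes in general, so each member was set beside the genes of its own bin when all tested genes were sorted by mean log2 CPM into 10 equal bins. The bin of Cd74 had a median log2 fold change of -0.05, with 26.7% called higher and 0.87% above 2-fold. That of H2-Ob had a median of -0.09 with 24.0% called higher, and that of H2-Oa -0.03 with 29.1%. H2-Aa, H2-Ab1, H2-Eb1 and H2-DMa shared a bin with a median of 0.16, in which 40.1% were called higher and 13.6% lay above 2-fold. Ciita, H2-DMb1 and H2-DMb2 shared one with a median of 0.36, in which 38.1% were called higher and 24.5% lay above 2-fold. H2-DMb1 was thus below the median of its bin, and the other 9 members were above theirs.

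Per kilobase of exon, the order of levels in shLuc was H2-Ob (33.1 CPM per kilobase), Cd74 (22.5), H2-Oa (13.01), H2-Ab1 (2.64), H2-DMa (1.14), H2-Eb1 (1.03), H2-DMb1 (0.755), H2-DMb2 (0.699), H2-Aa (0.503) and Ciita (0.108). In shMyb it was Cd74 (69.7), H2-Ob (46.4), H2-Oa (17.4), H2-Ab1 (4.26), H2-Eb1 (3.03), H2-DMa (1.54), H2-Aa (1.23), H2-DMb2 (1.11), H2-DMb1 (0.825) and Ciita (0.349). The libraries of H2-DMa and H2-Eb1 overlapped in shLuc, as did those of H2-Aa and H2-DMb2 in shMyb, so these neighbours in the order were not separated by their spread. This order rests on exon length, and it changes with another length. Per kilobase of the longest coding transcript, H2-Aa was at 1.797 and 1.587 CPM in shLuc, above H2-Eb1 (1.35 and 1.05), and at 4.48 and 3.80 CPM in shMyb, above H2-Eb1 (3.57 and 3.48) and H2-DMa (2.69 and 2.59). With exon length the level of Cd74 over that of H2-Ob was 0.679 ± 0.0223 (SD, n = 2) in shLuc and 1.51 ± 0.192 in shMyb. Which of them led in shMyb depended on the length used. With the longest coding transcript the ratio was 0.890 in shMyb, below 1.

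Within the pathway some proportions moved and others hardly did. Per kilobase, H2-Aa over H2-Ab1 was 0.214 and 0.170 in shLuc and 0.311 and 0.266 in shMyb, and H2-Eb1 over H2-Ab1 was 0.464 and 0.323 against 0.716 and 0.704. For both ratios the groups did not overlap. H2-Ob over H2-Oa was 2.73 and 2.39 against 2.44 and 2.92, and H2-DMa over the summed DM beta chains was 0.725 and 0.845 against 0.851 and 0.742. Here the groups overlapped. Levels of these ratios move with the length used: by longest coding transcript H2-Ob over H2-Oa was 4.25 and 3.72 against 3.79 and 4.55, and H2-Aa over H2-Ab1 was 0.340 and 0.270 against 0.495 and 0.423. The change between groups does not depend on length in ratios of 1 gene to another. The summed DO chains stood at 18.2 and 17.4 times the summed DM chains in shLuc and at 18.5 and 18.4 times in shMyb. In the summed CPM of the 10 members, which was 248 and 256 in shLuc and 422 and 427 in shMyb, Cd74 made up 14.8% and 15.2% against 29.1% and 26.0%. H2-Ob made up 71.3% and 69.9% against 56.7% and 60.9%.

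On chromosome 17 the class II members lie among other genes, and these other genes did not move as a block. From H2-Oa (34092340) to the end of H2-Eb1 (34316674) the segment also holds genes of the class I pathway, which loads peptides made in the cytosol. Of 17 tested genes listed from the segment and its flanks, 8 rose, 3 fell and 6 were not called (median 0.11). Over all tested genes 30.6% rose and 31.7% fell. The immunoproteasome subunit genes Psmb8 and Psmb9 and the peptide transporter gene Tap2, which lie between the DM genes and H2-Ob, fell by 0.34 (SE 0.04), 0.28 (SE 0.04) and 0.29 (SE 0.04). Psmb8 was at 345 and 353 CPM in shLuc and at 283 and 269 CPM in shMyb. Tap1 was at -0.04 (adjusted p = 0.357). H2-Eb2, a class II beta chain gene next to H2-Eb1, was at 9.54 and 8.65 against 8.14 and 8.39 CPM (-0.14, adjusted p = 0.2). H2-Eb2 is counted among these 17 genes and not among the members, although it is a class II gene. On the flank, the collagen gene Col11a2 rose by 0.69 (SE 0.07). H2-Eb2 and Tap1 were selected here after their values were seen.

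**Figure D3:**
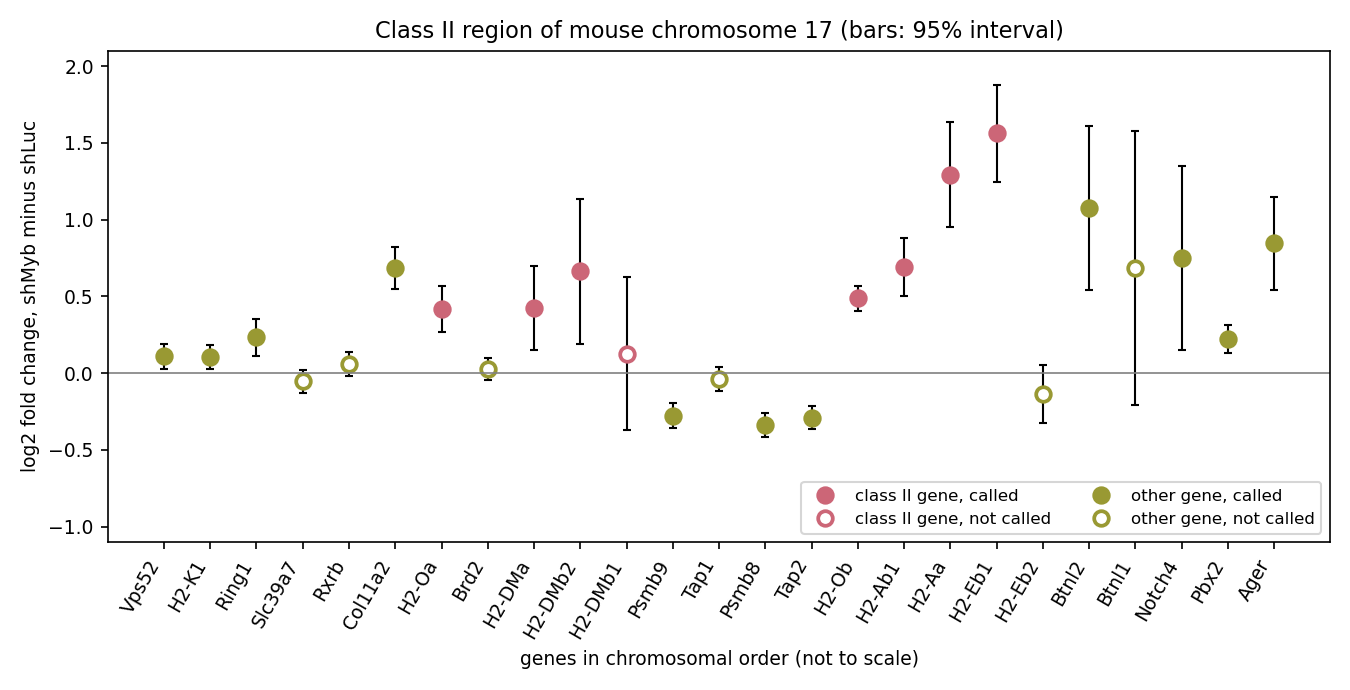
Log2 fold change, shMyb minus shLuc, of class II members (red) and other listed genes (olive) of chromosome 17, with 95% intervals from edgeR. Genes are in chromosomal order and not to scale, and H2-Eb2, a class II gene outside the members, is plotted in olive. Psmb9, Psmb8 and Tap2 lie below 0 between class II genes that lie above it, and H2-Eb2 (-0.14) stands beside H2-Eb1 (1.56).

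Among 19 genes that bind or serve class II and Ciita promoters, 9 rose, 4 fell and 6 were not called (median 0.07). For all tested genes the shares were 30.6% higher, 31.7% lower and 62.2% called in either direction. Of the RFX complex, Rfx5 was at 50.8 and 50.7 CPM in shLuc and at 57.4 and 57.8 CPM in shMyb (log2 fold change 0.18, SE 0.04, edgeR adjusted p = 7.5e-04). Rfxap (-0.07) and Rfxank (0.0040) were not called. Of NF-Y, which binds the Y box, Nfya rose by 0.10 and Nfyc fell by 0.16, while Nfyb was at -0.09 without a call. Creb1 (-0.0047), whose product binds the X2 box, and the acetyltransferase gene Kat2b (0.07) were not called. The coactivator genes Crebbp and Ep300 rose by 0.45 (SE 0.04) and 0.31 (SE 0.04).

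Genes that act on the B cell promoter of Ciita differed over a wider range, from -0.50 to 1.23. Sfpi1, which encodes PU.1, was at 32.4 and 31.6 CPM in shLuc and at 50.1 and 49.4 CPM in shMyb (log2 fold change 0.64, SE 0.05, edgeR adjusted p = 2.08e-11). Irf4, as counted in a line deleted for it, was at 97.2 and 101 against 232 and 233 CPM (1.23, SE 0.04, adjusted p = 3.44e-19). Irf8, the other deleted gene, fell by 0.34 (SE 0.04), and the interferon-induced gene Irf1 fell by 0.13 (SE 0.04). Counts per gene cannot show whether the Irf4 and Irf8 transcripts were intact. Prdm1, whose product represses Ciita in plasma cells, was at 5.26 and 5.65 against 3.93 and 3.81 CPM (-0.50, SE 0.13, adjusted p = 0.00166). The B-lineage factor genes Pax5 (0.21), Spib (0.16) and Tcf3 (0.10) rose. With replicate number as a block, the calls of Nfya (adjusted p = 0.0798) and Tcf3 (0.115) ended. That of Nfya also ended when shLuc replicate 1 (0.115), shLuc replicate 2 (0.19) or shMyb replicate 1 (0.12) was left out, and that of Tcf3 when any 1 of the 4 libraries was (0.0511 to 0.216).

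Of 12 genes of antigen and invariant chain processing 5 rose, 2 fell and 5 were not called (median 0.06). The shares over all tested genes were 30.6% higher and 31.7% lower. Ifi30, a thiol reductase of endosomes that opens disulfide bonds of antigens, was at 51.1 and 53.1 CPM in shLuc and at 192 and 180 CPM in shMyb (log2 fold change 1.84, SE 0.04, edgeR adjusted p = 3.02e-21). Ctss, cathepsin S, which cuts the last part of the invariant chain in B cells, was at 11.3 and 11.2 against 29.2 and 27.0 CPM (1.32, SE 0.07, adjusted p = 9.98e-15). In both genes the groups did not overlap, and the difference from Cd74 was not tested. Ctsa rose by 0.34 (SE 0.04) and Ctsz by 0.20 (SE 0.04). With library totals or the correction for expression level, 9 of the 12 were called higher.

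**Figure D4:**
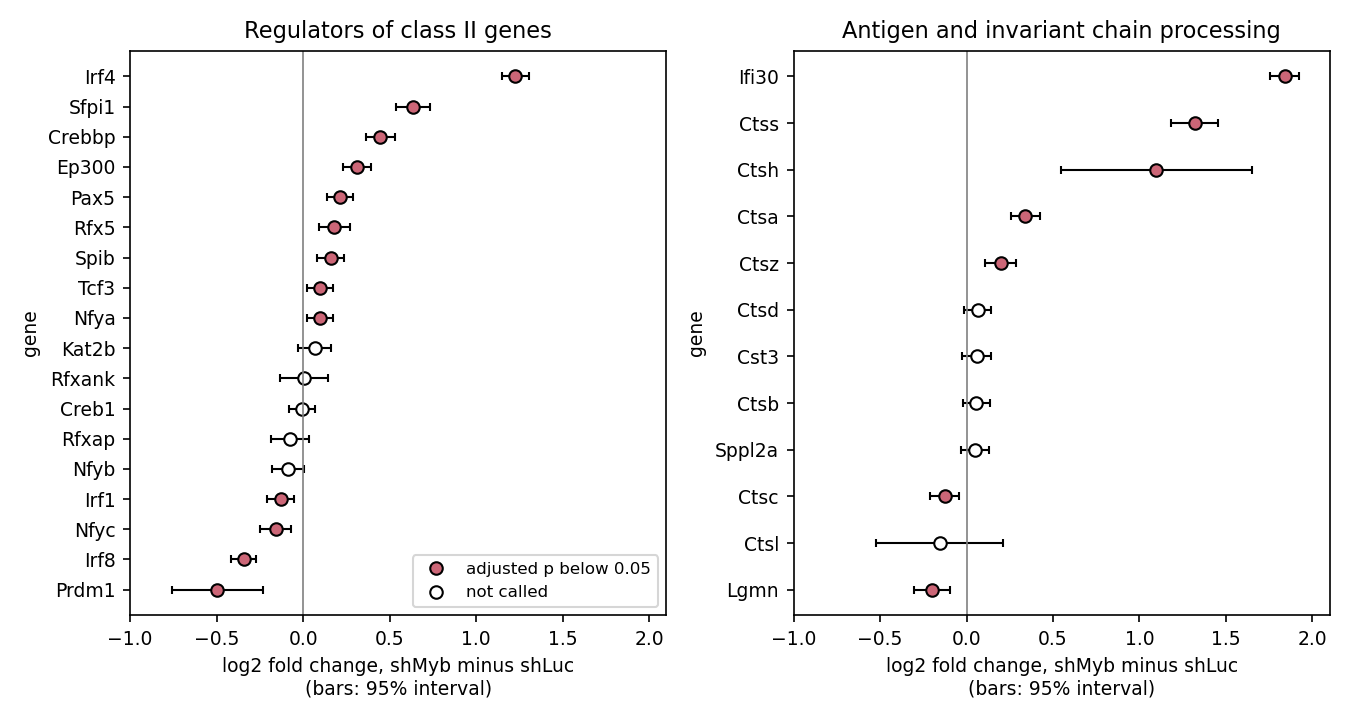
Log2 fold change, shMyb minus shLuc, of 18 regulators (left) and 12 processing genes (right), with 95% intervals from edgeR. Filled points passed an adjusted p below 0.05. Irf4 (1.23) and Sfpi1 (0.64) lead the regulators, Prdm1 (-0.50) is lowest, and Ifi30 (1.84) and Ctss (1.32) lead the processing genes.

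Interferon gamma is a known inducer of Ciita, and its response genes went both ways. Of 19 tested genes of that list 10 rose, 8 fell and 1 was not called (median 0.12), beside 30.6% higher and 31.7% lower over all tested genes. The 4 with the smallest p were the guanylate binding protein genes Gbp3 (1.01, SE 0.05), Gbp7 (0.74, SE 0.04) and Gbp5 (0.72, SE 0.06) and the receptor gene Ifngr1 (0.67, SE 0.04), and all 4 rose. The guanylate binding protein family did not move as a whole, since Gbp6 fell by 0.78 (SE 0.09, adjusted p = 7.08e-08). Gbp6 was named after its values were seen. Costimulatory genes, whose products act beside class II on T cells, were scarce. Of 9, 6 were tested, 3 rose and none fell (median 0.37). Cd40 was at 0.250 and 0.253 CPM in shLuc, on 10 and 11 counts, and at 1.03 and 1.04 CPM in shMyb (2.02, SE 0.36, edgeR adjusted p = 3.3e-05). Tnfsf9 (0.43) and Cd274 (0.30) rose by less. The calls of both ended without shLuc replicate 2 (0.40 and 0.24), with DESeq2 and with the correction for expression level, and that of Cd274 without shMyb replicate 1 (0.27). Cd80 was at 0.77 on 9 to 18 counts (adjusted p = 0.137), and Cd70 had 0 counts in all 4 libraries. The low-count filter asks 2 libraries for a minimum count of 10, scaled to the median library size. Cd40 met it in the shMyb libraries alone, and Cd80 in those and in 1 of shLuc. The direction of these 2 genes was thus partly fixed by the filter.

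Other cells that carry class II were looked for through their markers. Of 14 myeloid markers 7 were tested, of which 5 rose and none fell, beside 30.6% called higher and 31.7% lower over all tested genes. The summed level of the list was 5.33 to 6.48 CPM in shLuc and 10.4 to 12.6 CPM in shMyb. By the mean over libraries its most abundant genes were Cd68 (1.63 to 3.06 CPM), Itgam (0.964 to 3.30 CPM), Csf1r (0.826 to 1.26 CPM) and Cd14 (0.321 to 1.41 CPM). Those that rose were S100a9 (1.93), Cd14 (1.73), Itgam (1.51), Lyz2 (0.99) and Cd68 (0.64), while Csf1r was at -0.40 (adjusted p = 0.205) and Elane had 0 counts in every library. Genes of such low levels rose more often than they fell. Cd14, Itgam, Lyz2, Cd68 and Csf1r shared the expression bin of Ciita, with a median of 0.36. In that bin 38.1% were called higher, fewer were called lower, and 24.5% lay above 2-fold. S100a9 lay in the bin of lowest expression, with a median of 0.61. Whether the myeloid markers rose beyond genes of their bins was not tested. Of 10 dendritic cell markers 2 were tested and both rose, and the summed level was 0.400 to 0.436 CPM in shLuc and 1.01 to 1.39 CPM in shMyb. Those were Siglech, a marker of plasmacytoid dendritic cells, at 0.0501 and 0.0918 CPM in shLuc and at 0.411 and 0.373 CPM in shMyb (2.40, adjusted p = 0.0013), and Flt3 at 0.125 and 0.230 against 0.411 and 0.400 CPM (1.16, adjusted p = 0.0432). On 2 and 4 counts (Siglech) and 5 and 10 counts (Flt3) in shLuc, both met the low-count filter in the shMyb libraries alone. That they rose was thus largely fixed by the filter. Xcr1, Clec9a and Cd209a, markers of conventional or monocyte-derived dendritic cells, had 0 counts in every library. The part of these markers' cells in the result was not tested, and fewer cells of a type and less RNA per cell cannot be told apart in bulk RNA. Stromal markers summed to 34.8 to 46.3 CPM in shLuc and 42.8 to 49.5 CPM in shMyb. Of 8 tested, 1 was higher and 1 lower, beside 30.6% and 31.7% of all tested genes. Col1a2, Col1a1, Col3a1 and Sparc were the most abundant. Of 8 T cell markers 2 were tested and both rose, Thy1 from 12.9 and 11.7 to 62.6 and 58.8 CPM and Lck by 0.23, while Cd4, Cd8a and Cd8b1 had 0 counts in every library.

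The genes whose levels over the 4 libraries lay closest to those of Cd74 were listed by the root mean square difference of centred log2 CPM, with a prior count of 2 added. They were Ctbp2 (0.0093), the proton channel gene Hvcn1 (0.0223), Tbc1d8 (0.0262), the cytokine gene Il1b (0.0359) and C130074G19Rik (0.0426). Hvcn1 was at 9.19 and 9.87 CPM in shLuc and at 31.0 and 29.1 CPM in shMyb. The other 4 stood below 2.1 CPM in every library, and for genes of so few counts the likeness depends on the prior count. Without one the differences were 0.0234 for Hvcn1, 0.0569 for Ctbp2, 0.0642 for Tbc1d8, 0.0765 for C130074G19Rik and 0.234 for Il1b, and of these Hvcn1 alone stayed among the 5 closest genes. Il1b (0.1001 and 0.1148 CPM in shLuc) and C130074G19Rik (0.2253 and 0.2525 CPM in shLuc) met the low-count filter in the shMyb libraries alone. Their direction was thus partly fixed by the filter. With 4 libraries in 2 groups, the likeness to Cd74 mainly reflects a similar difference between groups.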

How the data were processed

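RNA-seq libraries of 2 groups, shLuc and shMyb, were compared, 2 per group, each assigned by its title. Each deposited file holds whole read counts by gene symbol for 1 library. Per the submitters' processing notes the tools were STAR, HTSeq, FastQC and DESeq2, and the build was mm10. Their roles and versions, the annotation, the strand setting and any filter were not given in the sources used here. In the files 27 symbols had been turned into dates; these stayed in the totals and are not named. The groups were compared with edgeR 4.0.16 (R 4.3.3): filterByExpr with a minimum count of 10 (12610 of 16832 genes with a count), TMM scaling, estimateDisp, glmQLFit with robust=TRUE and glmQLFTest, with Benjamini-Hochberg adjustment over all tested genes. Standard errors were derived from each log2 fold change and its F statistic. Libraries of a group differed by more than counting noise (chi-square per degree of freedom 3.76 in shLuc, 4.23 in shMyb). The test was checked on simulated counts. Coordinates and exon lengths are from GENCODE M21 (GRCm38, 1-based) and promoters from RefSeq (GRCm38.p6).

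The members and lists were chosen with earlier results of these data known. Named were all members and Myb, all regulators, up to 4 genes with the smallest p of each other pathway list, the up to 4 most abundant markers of a cell type and those at 0, and the 5 genes closest to Cd74. Some genes that this rule took are counted in their lists but not reported here by name. Ctsh, Ctsl, Ctsb, Ctsd, Ctsc, Lgmn, Sppl2a and Cst3 are shown in the plot alone. H2-Ea-ps, genes that overlap a member and, after their values were seen, S100a9, Lyz2 and Cd55 were named besides. The neighbour list lacked Hsd17b8, which is not used here. Alternatives were RLE scaling, library totals, no filter, DESeq2 1.42.0, limma-voom (limma 3.58.1), robust=FALSE, a floor of 1 CPM in 2 libraries, a replicate block, a correction for expression level by cyclic loess, an adjusted p below 0.01, a test against a fold of 1.2, and leaving out each library. A crossed block, the longest coding transcript as length, the likeness to Cd74 without a prior count and 2 further motifs were added after seeing the data.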

Additional observations from a re-analysis of the deposited data

How the results depend on the processing

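Over 16 alternative settings the count of members called higher ran from 7 to 9 and that of members called lower stayed at 0. It was 7 with DESeq2, with the correction for expression level and with the test against a fold of 1.2, and 8 or 9 when a library was left out. Ciita, H2-Aa, H2-Ab1, H2-Eb1, Cd74, H2-Oa and H2-Ob were called higher under all 16. H2-DMa kept its call in 12 and H2-DMb2 in 11. H2-DMb1 was called in none and ran from -0.23, with the correction for expression level, to 0.19. The median over the members ran from 0.58 with that correction to 0.74 with library totals.

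The labels number replicates 1 and 2 in both groups. Deviations from the group means correlated at -0.305 across 10727 genes for libraries with the same number, so the numbers were not taken as a pairing. With the replicate block 9 members were called higher, and 9 with the crossed block. The block ended the calls of Nfya and Tcf3 among the named genes.

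Counts in other lists moved more. With the test against a fold of 1.2 the regulators had 3 higher and 2 lower, the processing genes 0 lower, the neighbours 3 higher and 1 lower, the costimulatory genes 1 higher and the interferon gamma list 6 higher and 1 lower. With library totals the regulators had 2 lower, the processing genes 9 higher and 1 lower and the interferon gamma list 4 lower. With DESeq2 the processing genes had 1 lower, the neighbours 5 higher, the costimulatory genes 1 higher and the interferon gamma list 4 lower. With the correction for expression level the processing genes had 9 higher, and the costimulatory genes 1 higher and 1 lower. At an adjusted p below 0.01 the neighbours had 5 higher and the interferon gamma list 5 lower. With a library left out, the neighbours had 5 to 7 higher, the costimulatory genes 1 to 3 higher, the processing genes 1 to 2 lower and the interferon gamma list 5 to 7 lower. Beyond settings that test fewer samples or a stricter limit, the cause was not tested. Cd74 over the summed class II chains changed 1.51-fold per kilobase of exon and 1.57-fold with the longest coding transcript. Of 813 single-gene values under alternatives, over 51 genes, 761 kept their direction and side of the threshold, 45 lost a call, 7 gained one and none that was called changed sign. Genes near 1 CPM, such as H2-DMb1, are limited by their counts.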

Other observations

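Surface genes of later B cells, which carry more class II, moved in the same libraries. Of 10 such genes 9 were tested, 7 rose and 1 fell (median 0.43), beside 30.6% called higher and 31.7% lower over all tested genes. Their summed level was 110 to 112 CPM in shLuc and 244 to 254 CPM in shMyb. By the mean over the 4 libraries the most abundant were Cd22, Tnfrsf13c, Cd38 and Cd1d1, although in shLuc Cd38 stood below Cd55 (16.7 and 15.0 CPM). The inhibitory receptor gene Cd22 was at 26.2 and 24.1 CPM in shLuc and at 85.7 and 90.2 CPM in shMyb, and Cd38 was at 11.9 and 13.2 against 38.4 and 40.1 CPM. Tnfrsf13c, the receptor for the survival factor BAFF, was at 16.6 and 18.8 against 37.0 and 37.7 CPM, and Cd1d1 was at 22.6 and 21.5 against 28.5 and 30.9 CPM. Cr2, a complement receptor gene of mature B cells and the member that fell, was at 3.25 and 2.85 against 1.95 and 2.26 CPM, and it was named after its values were seen. The edgeR log2 fold changes were 1.81 for Cd22, 1.64 for Cd38, 1.08 for Tnfrsf13c, 0.43 for Cd1d1 and -0.53 for Cr2.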
